A study of Mus musculus with 18 samples.

Results

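SR and hnRNP genes code for the most abundant families of RNA-binding proteins that decide how pre-mRNA is spliced. Their transcripts were compared between nuclei and cytoplasm separated from myofibers, the multinucleated cells of skeletal muscle, of the mouse. The members are the array probes whose gene name begins with Srsf or Sfrs and a number, or with Hnrnp or Hnrp and a further letter, apart from probes described as pseudogenes. This rule took 73 of the 55681 probe names on the array and 41 of its 35527 gene names, and 22 of the 41 genes carried several probes. The rule used names only and no measured value, but it was chosen with earlier results of these data known. For 13 of the genes the array uses an older name, and current symbols are given here. It also took Hnrnpa1l2-ps, whose symbol ends in the mark of a pseudogene although its description does not use the word.

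SR proteins have RNA recognition motifs and a tail rich in arginine and serine, and most of them bind exonic enhancers and favour the use of the exon. hnRNP proteins coat nascent transcripts, many of them silence exons, and several members of both families shuttle between nucleus and cytoplasm. Many of these genes also regulate themselves, since the protein acts on its own pre-mRNA and produces transcripts with a retained intron or with an exon that carries a stop codon. Such transcripts are held in the nucleus or degraded by nonsense-mediated decay. In muscle, inherited mutations of HNRNPDL, HNRNPA1 and HNRNPA2B1 cause myopathies.

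The mice were CD1 females of 3 months with no stated genetic modification or treatment. Intact single myofibers were picked from extensor digitorum longus (EDL), a fast muscle, soleus, a slow muscle of oxidative fibers, and tibialis anterior (TA), a fast muscle, and pooled by 5 to 10 fibers. Each pool was lysed, nuclei were pelleted at low speed, and RNA of the pellet (nuclei) and of the supernatant (cytoplasm) was hybridized to 1-colour arrays. There were 18 arrays in 6 groups, 3 per fraction of each muscle. According to the labels, replicates 1, 2 and 3 of EDL and soleus came from mice 3 and 4, 5 and 6, and 7 and 8 in both fractions. The TA nuclei came from mice 1, 2 and 3, and the TA cytoplasm from mice 5 and 1, 5 and 2, and 9. In such bulk samples, fewer nuclei or cells of a type and less RNA in each cannot be told apart.

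Between 66 and 73 of the 73 member spots had a positive and significant signal on each array, between 54 and 71 were well above background and none was saturated. Precision is limited by the small number of arrays. The median SD between replicates over the members was 0.0872 to 0.118 (log2) in the nuclear groups and 0.226 to 0.342 in the cytoplasmic groups. All nuclei of EDL and soleus lay on slide 2 and all their cytoplasm on slide 1, so that fraction and slide cannot be told apart in these muscles. The TA nuclei lay on slide 4 with TA cytoplasm 2, whereas TA cytoplasm 3 lay on slide 3 and TA cytoplasm 1 on slide 1. Soleus cytoplasm 2 stood apart from the other cytoplasmic arrays, at -5.855 on the first principal component against -78.87 to -151.1. The 11 myofiber markers were well above background in every group, and their summed level was also higher in nuclei, at 122000 to 142400 in EDL cytoplasm against 200300 to 207700 in nuclei, 159600 to 195500 against 232300 to 239100 in soleus, and 89130 to 107600 against 152000 to 168200 in TA. The summed level of 6 endothelial markers was 1242 to 4777 in cytoplasm and 4745 to 6928 in nuclei, and that of 6 connective tissue markers 19560 to 45470 and 37900 to 73560. The 5 Schwann cell markers summed to 276.4 to 767.7 in cytoplasm and 727.6 to 2055 in nuclei. Of 6 satellite cell markers, Calcr was well above background on no array, Pax7 on no EDL array and Myf5 on no array of soleus cytoplasm. The sum of the 6 overlapped between fractions in EDL and soleus, whereas in TA it was 520.2 to 751.7 in cytoplasm and 1255 to 1363 in nuclei. The 5 macrophage markers on the array summed to 37550 to 38710 in EDL cytoplasm and 31930 to 34950 in EDL nuclei, and overlapped in soleus and TA. The 4 erythroid markers were higher in cytoplasm in EDL (13240 to 19870 against 10820 to 11220) and soleus (12260 to 27330 against 6166 to 6696) and lower there in TA (8120 to 10360 against 11680 to 12490). The 5 nuclear RNAs used as a check (Malat1, Neat1, Xist, Kcnq1ot1 and Meg3) summed to 3880 to 5683 in cytoplasm and 8153 to 18050 in nuclei. The part of other cell types in the member differences was not tested.

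Transcripts of SR and hnRNP genes were mostly higher in the nuclear fraction. A difference here is the normalized log2 signal in nuclei minus that in cytoplasm, averaged over the 3 muscles, and the test took probes with values on 2 or 3 arrays of every one of the 6 groups. All arrays were quantile normalized to a common distribution, so a difference is relative to the other RNAs of the same fraction. The share of a transcript that lies in the nuclei of a fiber was not measured. Of 66 member probes tested, 52 were higher in nuclei with an adjusted p below 0.05 in limma, whereas 31.2% of all 40541 tested probes were. A further 3 member probes were higher in cytoplasm, against 38.6% of all probes, and 11 passed in neither direction. Together 55 of 66 passed, against 69.8% of all probes. The median difference of the members was 0.92, and that of all probes -0.08. By gene, no share over the array was computed, and genes with several probes had more chances to pass. Member genes with at least 1 probe higher in nuclei numbered 37 of 41. The other 4 were Srsf12, which was higher in cytoplasm, and Srsf9, Srek1 and Hnrnpa1l2-ps, which did not pass here. The 7 probes not tested were 1 each of Srsf1, Srsf3, Srsf10, Akap17b, Pnisr, Hnrnpa1l2-ps and Hnrnpa2b1, and 6 of them were well above background on no array of TA cytoplasm.

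The same direction was found within each muscle. In EDL 39 of 70 member probes were higher in nuclei (20.0% of all probes tested) and 2 in cytoplasm (26.5%), and in soleus 43 of 70 (18.7%) and 2 (21.7%). In TA 40 of 67 were higher in nuclei (19.2%) and 2 in cytoplasm (33.5%). Counted in either direction, 41 probes passed in EDL (46.6% of all), 45 in soleus (40.3%) and 42 in TA (52.7%). In each of the 3 muscles separately, 29 of 66 probes from 21 genes were called higher in nuclei, against 10.6% of all probes. The cytoplasmic call was made in each muscle for 1 probe, that of Srsf12 (17.6% of all probes). Of 63 member probes measured on all 18 arrays, 29 had every nuclear value above every cytoplasmic value in each muscle (14.5% of all probes), and 1 the reverse (21.4%). The nuclear arrays of a muscle differed little from each other, and when the 3 of them were counted as 1 sample, 33 of 66 probes were higher in nuclei over the 3 muscles (15.1% of all probes). Within a muscle the members then lay nearer to the array, with 2 of 70 higher in nuclei in EDL (1.96% of all), 1 of 70 in soleus (1.09%) and 6 of 67 in TA (2.39%), and none higher in cytoplasm.

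**Figure D1:**
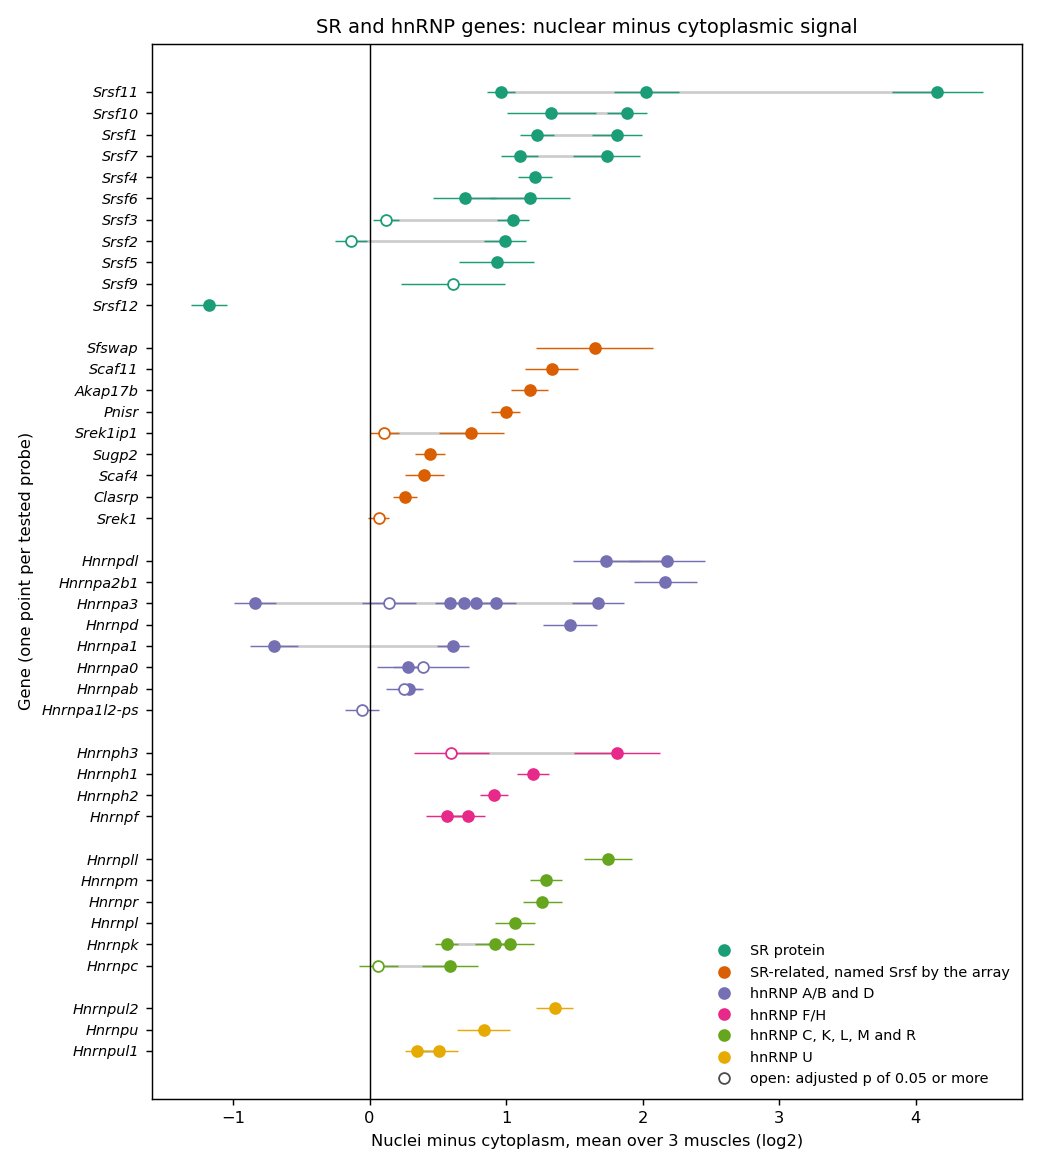
Difference of nuclei minus cytoplasm in log2, averaged over 3 muscles, for each of the 66 tested member probes, with 1 row per gene and bars of 1 standard error of the limma fit. Filled points passed an adjusted p of 0.05: 52 lie to the right of 0 and 3 to the left, those of Srsf12, Hnrnpa3 and Hnrnpa1, and grey lines join probes of 1 gene.

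SR proteins in the strict sense held the largest single difference, and over the 3 muscles their median was the highest of the classes. In TA the median of the hnRNP C, K, L, M and R genes, 1.11, lay above theirs, 1.03, and the differences between classes were not tested. Of their 22 probes from 11 genes, 19 were tested, 15 were higher in nuclei and 1 lower, with a median of 1.10. Srsf11, an SR protein that also interacts with the factors of the 3′ splice site, had 3 probes, numbered here from 5′ to 3′. They are printed because their differences lay furthest apart among all members. The array gives its positions on the mm9 build, and all letters are lower case as no part is marked.
Srsf11 probe 1 (chr3:157689536-157689595, minus strand): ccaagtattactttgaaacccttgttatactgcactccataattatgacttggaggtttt
Srsf11 probe 2 (chr3:157686446-157686505, minus strand): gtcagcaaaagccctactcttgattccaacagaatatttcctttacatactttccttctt
Srsf11 probe 3 (chr3:157675744-157675803, minus strand): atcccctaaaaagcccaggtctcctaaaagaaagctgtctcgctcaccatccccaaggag
Probe 3 is listed under a RefSeq mRNA of the gene, and probes 1 and 2 under cDNA clones only. On probe 1 the signal was 7.76, 7.60 and 7.71 in EDL nuclei and 2.64, 3.26 and 4.52 in EDL cytoplasm. In soleus it was 8.05, 7.91 and 8.18 in nuclei and 4.86, 2.37 and 2.29 in cytoplasm. In TA it was 6.23, 6.51 and 6.28 in nuclei and 3.26, 3.46 and 2.14 in cytoplasm. Every nuclear array lay above every cytoplasmic array by a wide margin, and the cytoplasmic signal was well above background on only 1 array in EDL, 1 in soleus and none in TA. With TA cytoplasm set at its bound, Srsf11 probe 1 was 17.2-fold higher in nuclei over the 3 muscles (adjusted p = 4.751e-08). The dim arrays of EDL and soleus cytoplasm kept their own values, so that this fold is not a strict lower limit. Probe 2, not well above background on any cytoplasmic array, had means of 4.79, 5.61 and 4.66 in the nuclei of EDL, soleus and TA and of 2.82, 2.81 and 3.35 in their cytoplasm. It was at least 4.07-fold higher in nuclei (adjusted p = 8.155e-06).

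The probe of the Srsf11 mRNA was also higher in nuclei, but far less so. On probe 3 the signal was 11.44, 11.43 and 11.44 in EDL nuclei against 10.35, 10.30 and 10.88 in EDL cytoplasm. The soleus values were 11.55, 11.54 and 11.66 against 10.60, 10.77 and 10.54, and the TA values 11.15, 11.25 and 11.07 against 10.02, 10.07 and 10.36. The fractions did not overlap in any muscle, and the differences in the 3 muscles lay within 0.93 to 1.01. The mean difference was 0.96 (SE 0.10, adjusted p = 7.734e-07), or 1.95-fold. Probes 1 and 2 were each more nuclear than probe 3 by the test of the pair within arrays (adjusted p = 1.352e-06 and 0.0009157). No size is given for these gaps, since the cytoplasmic signal of probes 1 and 2 was mostly not well above background.

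**Figure D2:**
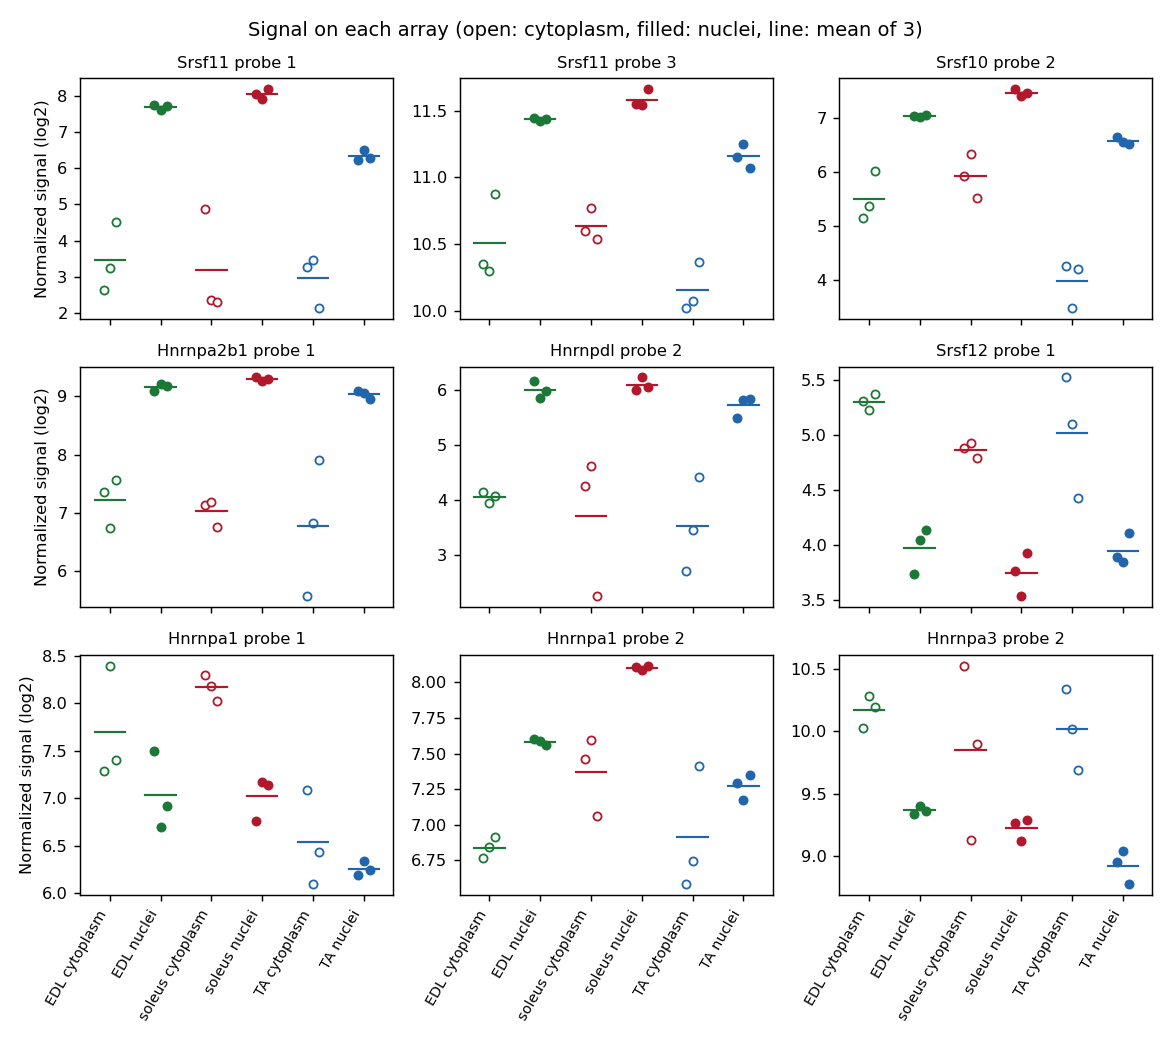
Normalized log2 signal on each of the 18 arrays for 9 member probes, with open points for cytoplasm, filled points for nuclei and a line at the mean of 3 arrays. Each panel has its own vertical axis, which does not start at 0. Nuclei lie above cytoplasm in each muscle for Srsf11, Srsf10, Hnrnpa2b1 and Hnrnpdl, and below it for Srsf12. By the mean of 3 arrays, nuclei lie below cytoplasm in each muscle for Hnrnpa1 probe 1 and Hnrnpa3 probe 2, and above it for Hnrnpa1 probe 2.

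Srsf10, which represses splicing when it is dephosphorylated during stress and mitosis, was higher in nuclei on both tested probes. Probe 2 had 7.05, 7.03 and 7.05 in EDL nuclei against 5.15, 5.37 and 6.01 in cytoplasm, and 7.53, 7.41 and 7.46 against 5.93, 6.34 and 5.53 in soleus. In TA it had 6.64, 6.56 and 6.53 in nuclei against 4.25, 3.49 and 4.21 in cytoplasm, where no array was well above background. No fraction overlapped, and the mean difference was at least 3.70-fold (adjusted p = 3.894e-08, the smallest among the members). Probe 3 differed by 1.33 (SE 0.33) over the 3 muscles but did not pass in TA (0.88, adjusted p = 0.2045 in limma). In cytoplasm its signal was well above background on 1 array of EDL, 2 of soleus and 1 of TA, and soleus cytoplasm 2 was at 2.10. Probe 1 had a value on only 2 of the 18 arrays.

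Most of the classical SR proteins were higher in nuclei over the 3 muscles, by 1.62-fold to 3.51-fold. Srsf1, the founding member that also acts in mRNA export and translation, differed by 1.23 (SE 0.13) on the probe with the highest mean signal, which serves as its reference probe, and by 1.81 (SE 0.18) on probe 3. Its probe 2 was not well above background in cytoplasm and was tested in EDL only (at least 2.30-fold, adjusted p = 0.03796). With the replicate number within each muscle as a block, its adjusted p was 0.08946. Srsf7, an exporter of mRNA together with Srsf3, differed by 1.74 (SE 0.25) and 1.10 (SE 0.14). Srsf4 differed by 1.21 (SE 0.12), Srsf6 by 0.70 (SE 0.23) on probe 1 and 1.17 (SE 0.29) on probe 2, and Srsf5 by 0.93 (SE 0.27). Each of these that was tested over the 3 muscles passed an adjusted p of 0.05 there. Within muscles, Srsf5 passed in soleus (adjusted p = 0.04367 in limma) but not in EDL (0.126) or TA (0.2941). Srsf7 probe 2 did not pass in soleus (adjusted p = 0.431). Srsf6 probe 1 passed in soleus alone and had -0.72 in TA (adjusted p = 0.175), and Srsf6 probe 2 passed in TA alone. Srsf9 differed by 0.61 (SE 0.38, adjusted p = 0.1609) and did not pass.

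Srsf2 and Srsf3 gave different answers at their probes. Srsf2 binds purine- and pyrimidine-rich enhancers alike, and Srsf3 is the smallest SR protein, linked to export and to 3′ end choice. Their probes are printed since the more 5′ one did not differ between fractions by the test over the 3 muscles while the next one did.
Srsf2 probe 1 (chr11:116713385-116713444, minus strand): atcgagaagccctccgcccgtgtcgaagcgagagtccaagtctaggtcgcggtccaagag
Srsf2 probe 2 (chr11:116711994-116712053, minus strand): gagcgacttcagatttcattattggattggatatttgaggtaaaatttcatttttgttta
Srsf3 probe 1 (chr17:29173333-29173392, plus strand): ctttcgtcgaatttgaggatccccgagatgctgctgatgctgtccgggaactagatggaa
Srsf3 probe 2 (chr17:29178485-29178544, plus strand): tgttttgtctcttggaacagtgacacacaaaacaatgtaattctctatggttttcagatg
Srsf2 probe 1 had a difference of -0.13 (SE 0.12, adjusted p = 0.3238) and probe 2 one of 0.99 (SE 0.15, adjusted p = 3.601e-05). Within muscles, Srsf2 probe 2 passed in TA alone, at 2.01 (adjusted p = 3.017e-05), and had 0.54 in EDL (adjusted p = 0.11) and 0.43 in soleus (adjusted p = 0.2122). The gap between them was 1.13 (SE 0.21, adjusted p = 0.0003446). Srsf3 probe 1 had 0.12 (SE 0.09, adjusted p = 0.2556) and probe 2 had 1.05 (SE 0.12, adjusted p = 1.341e-06), with a gap of 0.93 (SE 0.11, adjusted p = 5.211e-06). The means of Srsf2 probe 1 in EDL, soleus and TA were 9.47, 9.16 and 9.89 in nuclei and 9.43, 9.56 and 9.93 in cytoplasm. On Srsf3 probe 2 the nuclear values ran from 7.58 to 7.97 over the 3 muscles and the cytoplasmic values from 6.42 to 7.21, without overlap. On Srsf3 probe 1 the nuclear values ran from 11.68 to 11.96 inside a cytoplasmic range of 11.29 to 12.14. Within muscles, Srsf3 probe 1 passed in soleus alone, higher in nuclei by 0.42 (adjusted p = 0.04853 in limma). It had 0.20 in EDL (adjusted p = 0.3099) and -0.26 in TA (adjusted p = 0.1824). With the replicate number within each muscle as a block, the soleus call was lost (adjusted p = 0.1117). The GC content was 61.67% and 51.67% for the first probes of Srsf2 and Srsf3, and 28.33% and 35% for the second. Srsf3 probe 3 had no value in TA cytoplasm and did not pass in EDL (at least 2.07-fold, adjusted p = 0.1682) or in soleus (0.19, adjusted p = 0.823).

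Srsf12, a paralog of Srsf10 that the array names Srsf13b, was the only SR protein higher in cytoplasm, and the only member called so in each of the 3 muscles. Its probe is printed for that reason.
Srsf12 probe (chr4:33319990-33320049, plus strand): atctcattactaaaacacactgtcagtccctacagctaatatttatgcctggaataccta
The signal was 5.31, 5.22 and 5.37 in EDL cytoplasm and 3.74, 4.05 and 4.14 in EDL nuclei. In soleus it was 4.89, 4.93 and 4.79 in cytoplasm and 3.76, 3.54 and 3.93 in nuclei, and in TA 5.52, 5.1 and 4.43 in cytoplasm and 3.90, 3.85 and 4.11 in nuclei. All cytoplasmic values lay above all nuclear values within a muscle. No nuclear array was well above background, and 7 of 9 cytoplasmic arrays were, so that Srsf12 was at least 2.25-fold higher in cytoplasm (adjusted p = 1.559e-06).

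The array also gives the name Srsf to 9 genes of SR-related proteins, which now carry other symbols. Of their 12 probes 10 were tested, 8 were higher in nuclei and none in cytoplasm, with a median of 0.59. The largest was Sfswap, a regulator that suppresses its own splicing, at 1.65 (SE 0.43), and Scaf11, a partner of Srsf2, followed at 1.33 (SE 0.20). Sfswap rested on an uneven group, since EDL cytoplasm 2 was at 8.49 and the other EDL cytoplasmic arrays at 4.26 and 4.61, with the EDL nuclei at 6.79 to 6.89. Akap17b, a kinase anchor with an arginine-serine region, differed by 1.17 (SE 0.13), and Pnisr, a serine- and arginine-rich nuclear protein, by 1.00 (SE 0.11). Pnisr probe 2 was tested in soleus and TA alone and was higher in nuclei in both, by 2.04 (SE 0.48) and 2.06 (SE 0.43). Smaller differences that passed were those of Sugp2 (0.44) and Scaf4 (0.40), which binds the tail of RNA polymerase II. Clasrp, an SR-like partner of the CLK kinases, also passed, at 0.26 (adjusted p = 0.01626). With the replicate number within each muscle as a block, Clasrp had an adjusted p of 0.05457. The probes of Srek1ip1 differed by 0.11 (adjusted p = 0.382) and by at least 1.68-fold (adjusted p = 0.01118), the latter with no cytoplasmic array well above background. Srek1 differed by 0.07 (adjusted p = 0.4505), but its probe shares a run of at least 30 bases with 28 probes of other gene names, so that its signal may not belong to Srek1. The second probe of Akap17b did not pass in EDL or soleus, where it was tested.

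Among the hnRNP A/B and D genes, 12 of 18 tested probes were nuclear by the test and 2 cytoplasmic, with a median of 0.60. Hnrnpa2b1, which binds RNA transport signals and sorts RNAs, had 9.09, 9.22 and 9.19 in EDL nuclei against 7.35, 6.73 and 7.56 in cytoplasm. Its soleus values were 9.33, 9.26 and 9.31 against 7.13, 7.18 and 6.75, and its TA values 9.10, 9.07 and 8.96 against 5.56, 6.83 and 7.91. The fractions were far apart in each muscle, with a wide spread in TA cytoplasm. The mean difference was 2.17 (SE 0.23, adjusted p = 8.392e-07), or 4.49-fold. Its second probe had no value on any cytoplasmic array, a value on 8 of 9 nuclear arrays, and was not tested.

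Hnrnpdl, a paralog of Hnrnpd whose own transcript is spliced at its 3′ end under its protein's control, had differences of 1.74 (SE 0.25) and 2.18 (SE 0.28, adjusted p = 5.386e-06). On the second of these probes, nuclei had 5.50 to 6.24 and cytoplasm 2.25 to 4.63 over the 3 muscles, without overlap. Hnrnpd, also known as AUF1, which binds AU-rich elements and speeds mRNA decay, differed by 1.47 (SE 0.20, adjusted p = 8.515e-06). Hnrnpab, a binder of AU-rich and CArG-type sequences, differed by 0.29 (SE 0.09, adjusted p = 0.009037) and 0.26 (SE 0.14, adjusted p = 0.1108). Hnrnpa0 probes 1 and 2 gave 0.39 (SE 0.34, adjusted p = 0.308) and 0.28 (SE 0.11, adjusted p = 0.03683). The call on Hnrnpa0 probe 2 was lost with the replicate number within each muscle as a block (adjusted p = 0.07793). It was also lost when any 1 of 14 of the 18 arrays was left out. The tested probe of Hnrnpa1l2-ps differed by -0.05 (SE 0.12, adjusted p = 0.7185), and its other probe did not pass in EDL or soleus. In the authors' deposited values, where that other probe of Hnrnpa1l2-ps could be tested over the 3 muscles, it was higher in nuclei by 0.88 (limma adjusted p = 0.003694).

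Hnrnpa1 and Hnrnpa3, close paralogs that bind UAG motifs and repress exons, were the only members with calls in both directions, 2 of 18 genes with several tested probes, against 15.1% of 7648 such genes on the array. Hnrnpa1 has one probe of each kind, of which the nuclear one is printed, and Hnrnpa3 has 7 probes, of which the lowest and the highest are printed.
Hnrnpa1 probe 2 (chr15:103075181-103075240, plus strand): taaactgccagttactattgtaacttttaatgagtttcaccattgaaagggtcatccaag
Hnrnpa3 probe 2 (chr2:75500962-75501666, plus strand): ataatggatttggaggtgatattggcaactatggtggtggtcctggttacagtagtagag
Hnrnpa3 probe 6 (chr2:75504692-75504751, plus strand): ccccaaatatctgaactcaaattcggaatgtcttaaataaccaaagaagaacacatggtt
On Hnrnpa1 probe 1 soleus cytoplasm had 8.30, 8.19 and 8.03 and soleus nuclei 6.76, 7.17 and 7.14, without overlap. EDL had 7.29, 8.40 and 7.41 in cytoplasm and 7.50, 6.70 and 6.92 in nuclei, and TA 7.09, 6.09 and 6.43 in cytoplasm and 6.19, 6.34 and 6.24 in nuclei. The fractions overlapped in EDL and in TA, and the call within a muscle was made in soleus alone. Over the 3 muscles the difference was -0.70 (SE 0.18, adjusted p = 0.002414). Hnrnpa1 probe 2 was higher in nuclei by 0.61 (SE 0.12, adjusted p = 0.0002706), with 7.56 to 7.60 in EDL nuclei against 6.76 to 6.91 in cytoplasm and 8.09 to 8.12 in soleus nuclei against 7.06 to 7.60. In TA the fractions overlapped on probe 2, with 7.17 to 7.35 in nuclei and 6.58 to 7.41 in cytoplasm, and the difference of 0.36 did not pass (adjusted p = 0.1515). The probes of Hnrnpa1 differed by 1.31 (SE 0.21, adjusted p = 7.939e-05).

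Hnrnpa3 was higher in cytoplasm on probe 2 and higher in nuclei on 5 of its 7 probes. On probe 2 EDL cytoplasm had 10.03, 10.28 and 10.19 and EDL nuclei 9.34, 9.40 and 9.36, and TA had 10.34, 10.02 and 9.69 in cytoplasm and 8.95, 9.04 and 8.78 in nuclei. Soleus cytoplasm had 10.52, 9.13 and 9.90, with soleus cytoplasm 2 among the nuclear values of 9.26, 9.12 and 9.29. The fractions were thus apart in EDL and TA and overlapped in soleus, and the mean difference was -0.84 (SE 0.16, adjusted p = 0.0001889). Probe 6 gave the opposite, 1.67 (SE 0.19, adjusted p = 1.853e-06). On probe 6 the means were 6.86, 6.54 and 6.37 in the nuclei of EDL, soleus and TA and 4.84, 5.65 and 4.27 in cytoplasm. Probes 3, 4, 5 and 7 lay between 0.59 and 0.93 and each passed, and probe 1 was at 0.14 (adjusted p = 0.5378). Against probe 3, its reference probe, probe 2 was lower by 1.62 (SE 0.19, adjusted p = 4.83e-06), probe 1 lower by 0.64 (SE 0.20, adjusted p = 0.01264) and probe 6 higher by 0.89 (SE 0.21, adjusted p = 0.002023). Probes 1 and 2 are split in the genome, since the array places their 60 bases over 144 and 705 bases. The other tested members placed so were Sfswap, over 3615 bases, and Srek1ip1 probe 1, over 9748.

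**Figure D3:**
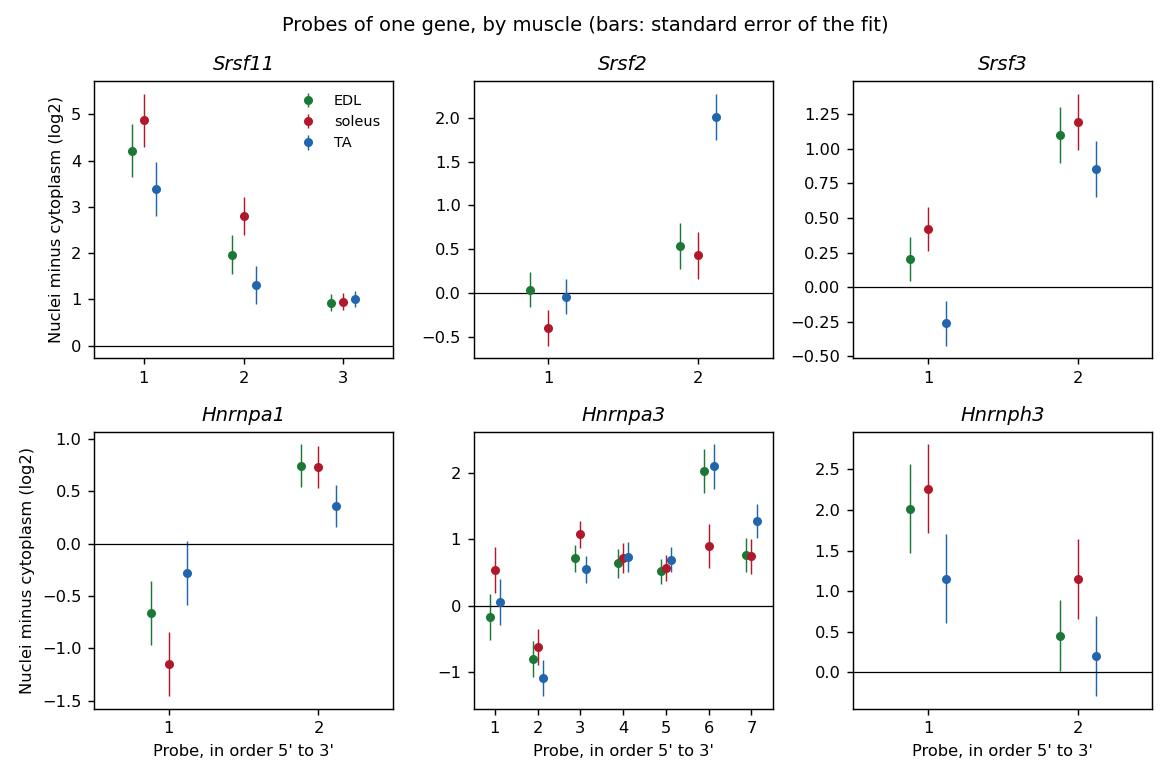
Difference of nuclei minus cytoplasm (log2) in EDL, soleus and TA for each tested probe of the 6 genes whose probes lay furthest apart, ordered from 5′ to 3′, with bars of 1 standard error of the limma fit. The probes of Srsf11 and Hnrnph3 fall toward 3′ (most cytoplasmic signals of both Hnrnph3 probes and of Srsf11 probes 1 and 2 were not well above background), the second probe of Srsf2, Srsf3 and Hnrnpa1 lies above the first, and Hnrnpa3 probe 2 lies below 0 in all 3 muscles.

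Of the hnRNP F/H genes, which bind runs of guanine, 5 of 6 probes were higher in nuclei and none in cytoplasm, with a median of 0.82. Hnrnph1 differed by 1.19 (SE 0.12, adjusted p = 3.723e-07), with 11.64 to 12.37 in nuclei and 9.86 to 11.57 in cytoplasm over the 3 muscles. Hnrnph2 differed by 0.91 (SE 0.10), and the probes of Hnrnpf by 0.57 (SE 0.15) and 0.72 (SE 0.13). Hnrnph3 is the fourth gene, and its probes are printed because the call was made on probe 1, listed under a cDNA clone, and not on probe 2, listed under the mRNA.
Hnrnph3 probe 1 (chr10:62480669-62480728, minus strand): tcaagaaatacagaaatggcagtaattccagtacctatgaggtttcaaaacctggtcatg
Hnrnph3 probe 2 (chr10:62477445-62477504, minus strand): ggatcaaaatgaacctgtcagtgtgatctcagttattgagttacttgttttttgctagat
Hnrnph3 probe 1 had 5.41, 5.62 and 5.40 in EDL nuclei and 5.92, 5.78 and 6.06 in soleus nuclei, and 2.87 to 4.75 in the cytoplasm of these muscles. In TA nuclei it had 5.29, 5.53 and 3.16, so that TA nuclei 3 fell among the TA cytoplasmic values of 2.82 to 4.12. It was 3.51-fold higher in nuclei (adjusted p = 0.0001114), with groups that had no array well above background set at their bound. Only 1 of 9 cytoplasmic arrays was well above background, and the dim arrays of its group kept their own values. Probe 2 was not well above background on any cytoplasmic array and did not pass (at least 1.45-fold, adjusted p = 0.06638). In TA nuclei it was not well above background either, so the size of a gap between these probes was not resolved.

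Of the hnRNP C, K, L, M and R genes, 8 of 9 probes were higher in nuclei and none in cytoplasm, with a median of 1.03. Hnrnpll, which drives exon skipping of CD45 in lymphocytes, differed by 1.75 (SE 0.18, adjusted p = 4.926e-07). Hnrnpm, Hnrnpr and Hnrnpl, a binder of CA repeats, differed by 1.29 (SE 0.12), 1.26 (SE 0.14) and 1.06 (SE 0.14). The 3 probes of Hnrnpk, which binds runs of cytosine, gave 0.92 (SE 0.14), 0.56 (SE 0.08) and 1.03 (SE 0.17). Hnrnpc, which binds runs of uridine and counts transcript length, differed by 0.59 on probe 2 (SE 0.20, adjusted p = 0.01847) and by 0.07 on probe 1 (SE 0.14, adjusted p = 0.6952). All 4 probes of the hnRNP U genes were higher in nuclei, with a median of 0.67. They were Hnrnpu, a scaffold of the nuclear matrix, at 0.83 (SE 0.19), Hnrnpul2 at 1.36 (SE 0.14), and Hnrnpul1 at 0.51 (SE 0.14) and 0.35 (SE 0.09).

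Probes of 1 gene often differed in how nuclear they were, as they did across the array. Each tested probe was set against the reference probe of its gene on the same arrays. This gave 25 pairs in 18 member genes, of which 14 pairs in 11 genes differed with an adjusted p below 0.05 in limma (57.8% of 12950 pairs on the array). The probe was more nuclear than its reference in 7 pairs (37.0% of all pairs) and less in 7 (20.8%). In 5 of the 25 pairs a probe was not well above background on any array of a group, and 4 of these passed, whereas 10 of the other 20 did. Beside the 6 genes above, pairs of Srsf1, Srsf7, Srek1ip1, Hnrnpc and Hnrnpk passed, and those of Srsf6, Srsf10, Hnrnpdl, Hnrnpul1, Hnrnpf, Hnrnpa0 and Hnrnpab did not. Position gave no single order, since the 3′-most probe was lower than the 5′-most in 7 of 18 genes (45.4% of 7648 genes on the array). The spread between the probes of a gene had a median of 0.57 among members and 0.77 among all such genes.

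The kind of transcript a probe is listed under and its base composition moved with the difference. The 5 tested probes listed only under cDNA clones were Srsf11 probes 1 and 2, Hnrnph3 probe 1, Pnisr probe 1 and Hnrnpk probe 3. All were higher in nuclei, by 1.00 to 4.11 with a median of 1.81 when dim groups are set at their bound. The 55 listed under a RefSeq mRNA and no pseudogene had a median of 0.92, with 45 higher in nuclei and 1 in cytoplasm. For 5 probes the array also lists a transcript of a pseudogene, Gm5643, Gm10052 or Gm6793. These were both probes of Hnrnpa1 and probes 1, 2 and 3 of Hnrnpa3, with a median of 0.14 and 2 called in each direction. For these the signal of the gene and of the pseudogene cannot be told apart. Across the 66 member probes the difference correlated with the GC content of the probe at r = -0.459, against -0.214 over all 40541 tested probes, and over the 25 pairs the differences in GC and in signal correlated at r = -0.635. The probes share arrays and genes and are not independent, and the part of GC content was not tested. Below 40% GC, 33 of 36 member probes were higher in nuclei (52.9% of all probes in that range), with a median of 1.18 against 0.48 for all. At 40% or more, 19 of 30 were (24.1% of all), with medians of 0.48 and -0.23. The values for all probes include the members, and GC content was not matched within a range.

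The size of the difference was compared between muscles as well. No member passed the test of muscle by fraction over all 3 muscles (limma, 1.55% of all probes), 8 had an unadjusted p below 0.05, and the smallest adjusted p was 0.05769, that of Srsf2 probe 2. Comparing TA with soleus, 3 of 67 probes passed (3.33% of all), against 0 of 66 for TA with EDL (0.339%) and 0 of 69 for soleus with EDL (0.0286%), where 6 and 3 had an unadjusted p below 0.05. Srsf2 probe 2 had 7.83, 7.77 and 7.92 in TA nuclei and 6.20, 5.64 and 5.65 in TA cytoplasm, but 8.30, 8.11 and 8.11 in soleus nuclei and 7.81, 8.39 and 7.05 in soleus cytoplasm. Its fractions were well apart in TA and overlapped in soleus, with differences of 2.01 and 0.43. The difference in TA exceeded that in soleus by 1.58 (SE 0.38, adjusted p = 0.0348). Pnisr probe 1 went the other way, with 1.55 in soleus, 0.97 in EDL and 0.47 in TA, and the difference in TA minus that in soleus was -1.08 (SE 0.26, adjusted p = 0.03788). Srsf7 probe 2 had means of 6.21, 5.74 and 5.71 in the nuclei of EDL, soleus and TA and of 4.51, 5.50 and 4.35 in their cytoplasm. It differed by 1.69 in EDL, 1.36 in TA and 0.24 in soleus, and its test over the 3 muscles gave an adjusted p of 0.06326.

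The third probe that passed, the 5′ probe of Srsf6, had unlike signals on the TA cytoplasmic arrays. Its sequence is printed because its signal did not track the other probe of the gene.
Srsf6 probe 1 (chr2:162760546-162760605, plus strand): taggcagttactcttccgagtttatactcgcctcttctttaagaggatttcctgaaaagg
The processed signal, before any scaling, was 465.8, 444.6 and 478.2 on the TA nuclear arrays and 572.9 and 688.4 on TA cytoplasm 2 and 3, all on slides 3 and 4. On TA cytoplasm 1, the TA array of slide 1, it was 3.405 and did not count as significant. On the EDL and soleus arrays it lay between 8.773 and 104.2. TA cytoplasm 1 thus stood apart from the other TA arrays. It is a single array with its own slide, scan day and pool of mice among them, and slide, scan day and sample cannot be told apart. Srsf6 probe 2 showed no such step, with 49.89 to 72.81 in TA nuclei and 18 to 31.17 in TA cytoplasm. For probe 1 the difference was 1.91 in soleus, 0.90 in EDL and -0.72 in TA, and TA minus soleus was -2.63 (SE 0.58, adjusted p = 0.02708), where TA cytoplasm 1 did not enter. Srsf6 probe 1 had passed over the 3 muscles (adjusted p = 0.01494), although its TA difference ran the other way.

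**Figure D4:**
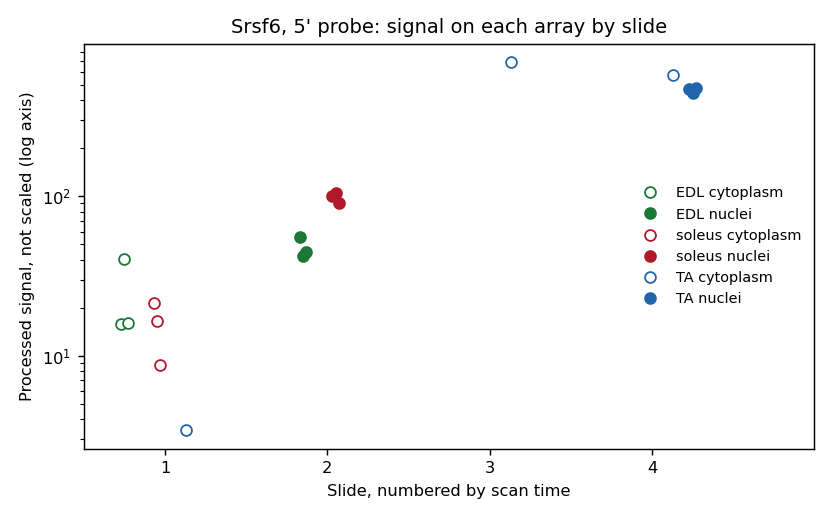
Processed signal of the 5′ probe of Srsf6, not scaled between arrays, on each of the 18 arrays, on a log axis against the slide. The 5 TA arrays of slides 3 and 4 lie between 444.6 and 688.4, while TA cytoplasm 1 on slide 1 lies at 3.405, below all EDL and soleus arrays.

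TA cytoplasm 1 also stood below the other TA cytoplasmic arrays on further members. Srsf9, Srsf5, Hnrnpa0 probe 1, Hnrnpdl probe 1 and Srsf7 probe 1 were lower on TA cytoplasm 1 than on the mean of TA cytoplasm 2 and 3 by more than 2 (log2), as was Srsf6 probe 1, which makes 6 of 73 member probes, and none was higher by as much (3.48% and 0.92% of all probes). Srsf9 had 5.75 on TA cytoplasm 1, 9.20 and 9.60 on the others and 8.60 to 8.92 in TA nuclei, whereas all EDL and soleus arrays lay between 5.54 and 6.84. Srsf5 had 8.51 against 11.01 and 11.13, with a mean of 10.83 in TA nuclei. In both the TA arrays of slides 3 and 4 were high in either fraction. Without TA cytoplasm 1, 8 member probes passed the test of muscle by fraction (3.96% of all probes): Hnrnpdl probe 1, Hnrnpf probe 1, Srsf5, Srsf2 probe 2, Srsf9, Hnrnpul2, Srsf7 probe 2 and Srsf6 probe 1. Without TA cytoplasm 3, Srsf7 probe 2 and Pnisr probe 1 passed (4.32%). Within the arrays of slides 3 and 4 alone, 35 of 66 member probes were higher in nuclei in TA (20.6% of all probes) and 3 in cytoplasm (30.7%). Within slide 4 alone the counts were 33 of 67 (18.4%) and 2 (29.5%), but TA cytoplasm then has 1 array, which limma assumes to vary like the arrays of the other groups.

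Few member probes passed between soleus and EDL, although 49 of 69 had a higher level in soleus (43.7% of all probes). The median difference, soleus minus EDL, was 0.15 for the members and -0.04 for all probes, and this lean was not tested. Over both fractions 1 of 69 member probes passed (3.83% of all probes, 2.27% higher in soleus and 1.56% higher in EDL), and 8 had an unadjusted p below 0.05 in limma. It was Hnrnpa0 probe 2, which was higher in soleus by 0.55 (SE 0.14, adjusted p = 0.03853). Hnrnpa0 had 10.14, 10.07 and 10.18 in soleus nuclei and 9.55, 9.43 and 9.63 in EDL nuclei, and 10.02, 10.49 and 9.55 in soleus cytoplasm against 9.51, 9.50 and 9.52 in EDL cytoplasm. The soleus arrays lay above the EDL arrays within each fraction, by a narrow margin in soleus cytoplasm 3. The next smallest p-values were those of Hnrnpa1 probe 2, at 0.53 (adjusted p = 0.05679), and Srsf4, at 0.53 (adjusted p = 0.06736). Srsf4 had means of 9.21 in soleus nuclei and 8.61 in EDL nuclei, and of 8.00 and 7.52 in their cytoplasm. The call on Hnrnpa0 was lost with the replicate number as a block, where 0 probes passed.

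Genes that act with SR and hnRNP proteins were counted by lists drawn up from textbook knowledge, with earlier results of these data known. The kinases and the phosphatase regulator that set the phosphorylation of SR proteins had 11 of 15 probes higher in nuclei and none in cytoplasm, with a median of 0.96. By the reference probe of each gene, Clk1, which phosphorylates SR proteins in the nucleus, differed by 2.58 (SE 0.21), Srpk1, which does so in the cytoplasm, by 1.64 (SE 0.29), and Clk2 by 0.21 (adjusted p = 0.6304). SR-related proteins and the Tra2 activators had 24 of 30 probes in favour of nuclei and 1 of cytoplasm, with a median of 0.98, and 4 of the genes listed there are members above. Among them were Son, a scaffold of nuclear speckles, at 1.91 (SE 0.13), Luc7l3, a U1-associated factor, at 1.98 (SE 0.16), and Tra2a at 1.67 (SE 0.11). Factors of nonsense-mediated decay had 7 of 8 probes higher in nuclei (median 0.61), led by Smg1, the kinase of Upf1, at 2.35 (SE 0.10).

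Core components of the spliceosome had smaller medians. Their counts stand beside 31.2% of all probes higher in nuclei and 38.6% in cytoplasm, with a median of -0.08. Of the U1, U2 and U2AF factors, 11 of 23 probes favoured nuclei and 4 cytoplasm (median 0.31), among the latter U2af2, which binds the polypyrimidine tract, at -0.50 (SE 0.11) and Snrpa, a U1 protein, at -0.92 (SE 0.13). The Sm proteins, which form the ring on spliceosomal snRNAs, had 3 of 14 probes higher in nuclei (median 0.18), and the tri-snRNP factors 5 of 14, with 3 in cytoplasm (median 0.22). The exon junction complex had 2 of 8 (median 0.25). Other splicing regulators of muscle had 29 of 42 higher in nuclei and 3 in cytoplasm (median 0.63), from Ptbp2 at 2.42 (SE 0.30) and Mbnl2 at 1.24 (SE 0.10) to Khdrbs1 at -1.97 (SE 0.14). The differences between lists were not tested.

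**Figure D5:**
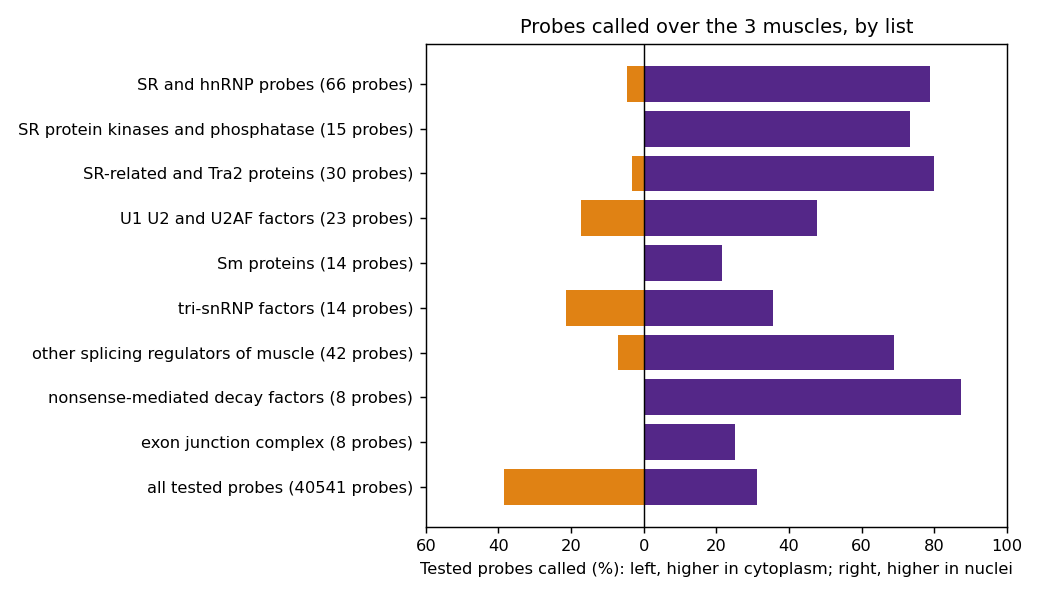
Share of tested probes called over the 3 muscles (limma, adjusted p below 0.05), higher in nuclei to the right of 0 and higher in cytoplasm to the left, for the members, the lists of related genes and all 40541 tested probes, with the number of probes in brackets. The members, at 52 right and 3 left of 66, lie near the SR-related and kinase lists, and all probes lie at 31.2% and 38.6%.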

How the data were processed

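The authors' scanner files hold the processed intensity of each spot (Agilent Feature Extraction 10.7.3.1, background-subtracted, array positions on mm9). Their deposited value table holds quantile-normalized intensities, filtered to 3668 probe names, which were taken to log2 here. It was used as an alternative only, since it holds 9 of the 73 member probes. From the intensity files, control spots were dropped, spots that were not positive and significant were set to missing, log2 values were quantile normalized between arrays and spots of a probe averaged, as the methods of the study describe. Spots marked as outliers, none of them of a member, were set to missing as a further step. Group means of 6 groups over 18 arrays were fitted in limma 3.58.1 (R 4.3.3), and p-values were adjusted by Benjamini-Hochberg over all tested probes, at a threshold of 0.05. A probe needed values on at least 2 of 3 arrays in each group compared. Where a group was not well above background on any array, a fold is given as a bound, against the higher of the dim probe's signal and the lowest signal well above background. A group with at least 1 array well above background kept its own values, dim arrays included. Pairs of probes were tested on their difference within each array. The scripts were tested on simulated data.

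Symbols were updated through RefSeq by accession for 66 probes, by another probe of the gene for 5 and by symbol for 2. No genome of this build was used, so exons and UTRs are not stated. Values are given for the 6 members with the largest difference in each direction (3 in cytoplasm, where no more passed), the 3 with the smallest p for muscle by fraction and for soleus against EDL, the probes of the 6 genes with the largest spread between probes, and in short form for the others. Members and gene lists were chosen with earlier results of these data known. In EDL and soleus the replicate numbers mark the same pools of mice in both fractions and muscles, and in TA only in part. Deviations from the group means of arrays with the same number correlated at -0.111 to 0.131. Each array was left out in turn, and scaling, background correction, filters, slide, pairing, Significance Analysis of Microarrays and the deposited values were tried as alternatives. The sequence and position of 1 member probe are not reported here.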

Additional observations from a re-analysis of the deposited data

Results flagged for a closer look

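The difference of nuclei minus cytoplasm differed between TA and soleus in 3 of 67 member probes by the test of that difference in limma, near the 3.33% of all probes. It was larger in TA by 1.58 (log2) for Srsf2 probe 2, with an adjusted p of 0.0348. It was smaller in TA for Srsf6 probe 1, by -2.63 (adjusted p = 0.02708), and for Pnisr probe 1, by -1.08 (adjusted p = 0.03788). For Srsf3 probe 1 every nuclear array lay above every cytoplasmic array in soleus and below in TA. Its difference in TA minus that in soleus was -0.68 (adjusted p = 0.1055 in limma), which did not pass. TA and soleus lay on different slides in 5 of 6 TA arrays, and the part of the slide in these values was not tested.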

How the results depend on the processing

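Over the 3 muscles, 46 to 62 member probes were higher in nuclei under the other scalings, background correction, filters, replicate block and Significance Analysis of Microarrays, and 33 when nuclear arrays were averaged to 1 sample per muscle, which also gave 2 in EDL, 1 in soleus and 6 in TA (1.96%, 1.09% and 2.39% of all probes), and 0 higher in cytoplasm within any muscle. Without scaling between arrays, which moved the median of all probes from -0.08 to 0.42, 1 member was higher in cytoplasm over the 3 muscles, 1 in EDL, 0 in soleus and 1 in TA, and 17 of 66 passed the test of muscle by fraction (36.4% of all probes). Of all calls, 70.1% were then higher in nuclei, against 44.8% in the fit reported and 35.9% with 75th percentile scaling, where the median was -0.30. After normexp background correction, 1 was higher in cytoplasm in soleus and 4 in TA, and 5 passed muscle by fraction (3.63% of all). Without the filter on significance 2 of 73 did (2.37%). Of the 9 members in the deposited table, 3 were higher in nuclei in soleus (5 in the scanner files), 2 in cytoplasm in TA (1) and 1 in cytoplasm over the 3 muscles (2), where Hnrnpa1 probe 1 had -0.32 (limma adjusted p = 0.1169) and Hnrnpa1l2-ps probe 1, not tested in the scanner files, 0.88 (0.003694).

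Between soleus and EDL, 2 members passed with 75th percentile scaling (4.12% of all probes), 4 after normexp (5.44%), 0 with the replicate block and 0 with nuclear arrays as 1 sample. Over the 3 muscles the replicate block took the calls on Clasrp and Hnrnpa0 probe 2 (limma adjusted p = 0.05457 and 0.07793), which left 53 of 55 members called, and that on the difference between probes of Hnrnpk probe 2 (0.05276). Calls in either direction fell from 41 to 37 in EDL, from 45 to 37 in soleus and from 42 to 40 in TA. With each array left out in turn, 50 to 53 members were higher in nuclei over the 3 muscles and 12 to 14 pairs passed. Those higher in cytoplasm in EDL ranged from 1 (without EDL cytoplasm 2 or 3 or EDL nuclei 2 or 3) to 3 (without EDL cytoplasm 1). Between soleus and EDL the range was 0 (without EDL cytoplasm 2 or 3, soleus cytoplasm 2, or any 1 of the nuclear arrays) to 4 (without TA cytoplasm 1), with 3 without soleus cytoplasm 1 or 3 or TA cytoplasm 3. The test of muscle by fraction gave 0 to 8, with 8 without TA cytoplasm 1, 2 without TA cytoplasm 3 and 1 without EDL cytoplasm 2 or 3 or soleus cytoplasm 2 or 3. Srsf6 probe 1 lost its call over the 3 muscles in 4 settings, and Hnrnpa0 probe 2 in 16 of 25. The cause of these shifts was not tested.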
